A study of Mus musculus with 39 samples.

Results

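Eµ-myc lymphomas differ in the level of Ccnd2 relative to Ccnd1, the transcripts of D-type cyclins, and 16 of the 39 tumours stand at the ends of that range. Tumours were first kept as B lymphomas if the B cell coactivator gene Pou2af1 reached a log2 level of 8, which 33 of 39 did. The sets were then chosen by the measured cyclin levels, as the Ccnd2 level minus the Ccnd1 level in each tumour. The 8 tumours with the highest difference are called Ccnd2-leaning and the 8 with the lowest Ccnd1-leaning, which orders the tumours and does not say which cyclin is more abundant, because levels of different probe sets cannot be compared. The other 17 B lymphomas belong to neither set. All 39 mouse tumours share 1 genotype, the Eµ-myc transgene, in which the immunoglobulin heavy chain enhancer drives Myc in B lineage cells. The labels give no treatment, age, time point or normal tissue. RNA came from homogenised frozen tumour tissue, so other cells can be present, and 1 array was hybridised per tumour. The labels do not say how many mice gave the tumours, and p-values therefore measure only the spread between these samples.

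D-type cyclins bind the kinases Cdk4 and Cdk6. The active kinase phosphorylates the retinoblastoma protein, which releases E2F transcription factors and lets the cell pass from G1 into S phase. The 3 D cyclins, encoded by Ccnd1, Ccnd2 and Ccnd3, are closely related proteins with different expression by cell type. In B cells Ccnd2 is known as a target of B cell receptor, NF-kB and cytokine signals, Ccnd3 serves precursor and germinal centre B cells, and Ccnd1 is low in normal B cells. The question put to these data is what else differs between lymphomas that lean on Ccnd2 and those that lean on Ccnd1.

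The tumours of the Ccnd2-leaning set did not lean in 1 way. The rule used the cyclin levels, so they are given as a description without a test. Tumours 1, 2, 18 and 27 had high Ccnd2, at log2 levels of 11.41, 11.50, 11.01 and 11.10, which no other tumour reached. Their Ccnd1 levels were 9.34, 10.71, 8.87 and 9.10. Tumour 15 had a Ccnd2 level of 10.13 beside a Ccnd1 level of 10.75. Tumours 7, 13 and 21 entered the set through low Ccnd1, at 8.95, 7.53 and 6.95, and their Ccnd2 levels were only 8.83, 7.96 and 6.84. The Ccnd1 level of tumour 21 was the lowest of the 39, and of the 33 B lymphomas only tumour 35 had less Ccnd2.

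**Figure D1:**
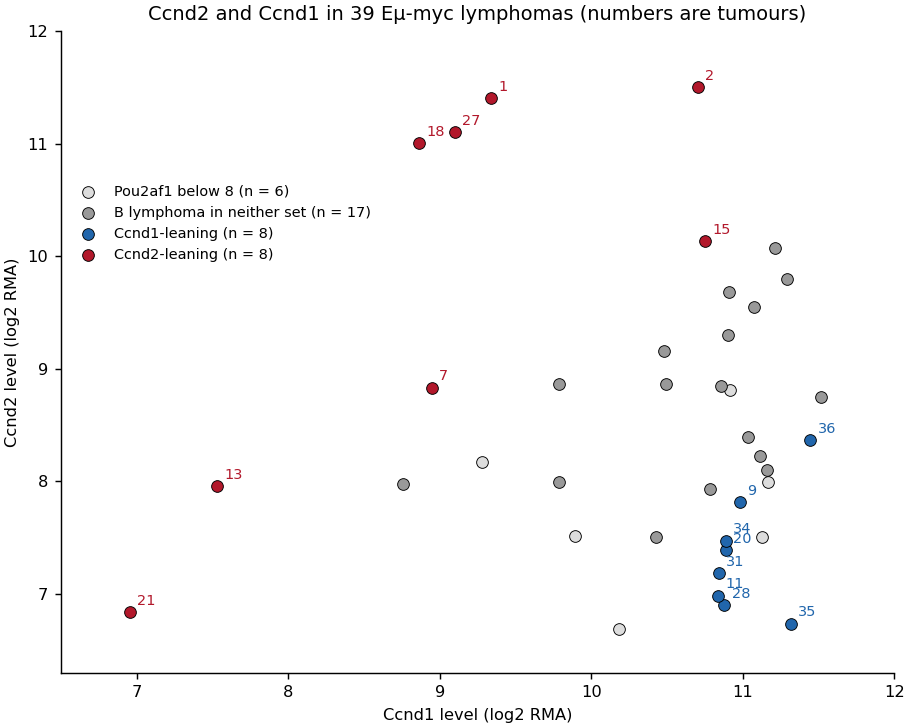
Log2 level of Ccnd2 (vertical axis) against Ccnd1 (horizontal axis) in the 39 tumours, 1 point per tumour, coloured by set; the axes are levels of different probe sets, so only positions along each axis compare. Tumours 1, 2, 18 and 27 stand alone above a Ccnd2 level of 11, while tumours 7, 13 and 21 lie at 8.95 or below on the Ccnd1 axis and at 8.83 or below on the Ccnd2 axis.

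The Ccnd1-leaning set was more uniform. Its Ccnd1 levels ran from 10.84 through a median of 10.89 to 11.45 and its Ccnd2 levels from 6.74 through 7.29 to 8.37. Ccnd1 at that level was the common state of these lymphomas, because the 17 tumours of neither set had a median of 10.90. What set the Ccnd1-leaning tumours apart from them was low Ccnd2, with a median of 7.29 against 8.85. The difference between the cyclins ran from -0.62 (tumour 15) to 2.14 (tumour 18) in the Ccnd2-leaning set and from -4.58 (tumour 35) to -3.08 (tumour 36) in the Ccnd1-leaning set. Just outside the sets were tumour 37 at -0.78 and tumour 33 at -3.05. All 7 probe sets of Ccnd2 and all 3 of Ccnd1 had medians that differed between the sets in the direction of the rule.

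Both sets were B lineage tumours by genes the rule did not use. Cd79a, a signalling chain of the B cell receptor, lay between 8.66 and 10.04 in the Ccnd2-leaning set and between 9.08 and 9.65 in the Ccnd1-leaning set, against 3.95 to 6.09 in the 6 tumours below the Pou2af1 threshold. Pax5, the factor that maintains B cell identity, lay between 6.55 and 8.37 and between 7.13 and 8.40, respectively, against 4.96 to 7.08 in those 6 tumours, which overlaps the Ccnd2-leaning set. Cd79b and Blnk, other receptor signalling genes, also overlapped, reaching 12.51 and 12.09 in the 6 tumours and starting at 11.93 and 11.62 in the Ccnd2-leaning set. Array medians ran from 5.66 to 5.78 over the 16 arrays, and the 3 prime minus 5 prime difference of the control transcripts from 0.048 to 0.194 and from 0.024 to 0.336. No pair of the 16 arrays held identical values, as r between arrays across probe sets ran from 0.902 to 0.987. Genes varied more among the Ccnd2-leaning tumours: the median SD of a gene was 0.343 there and 0.204 in the other set, and 79.1% of genes had the larger SD in the Ccnd2-leaning set.

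Marker genes of other cells differed between the tumours too. For each gene list a score was taken per tumour, as the average deviation of its genes from their own means in log2 units. The T cell score exceeded every Ccnd1-leaning tumour in 6 of 8 Ccnd2-leaning tumours, and ran from -0.66 through 0.65 to 2.72 against -1.04 through -0.44 to -0.26. Tumour 2 had the highest T cell (2.72), cytotoxic (3.34), macrophage (1.64) and interferon (3.22) scores of the 16. The T cell receptor chain gene Cd3g was at 11.14 in tumour 2 and 10.54 in tumour 27, and at most 6.38 in the Ccnd1-leaning set, while the cytotoxic granule gene Gzma reached 8.93 against 5.73. In tumours 7, 13 and 15 the salivary gland score was 5.21, 3.62 and 2.53, against at most -0.66 in the Ccnd1-leaning set. In bulk tissue, fewer cells of a type and less RNA per cell cannot be told apart.

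**Figure D2:**
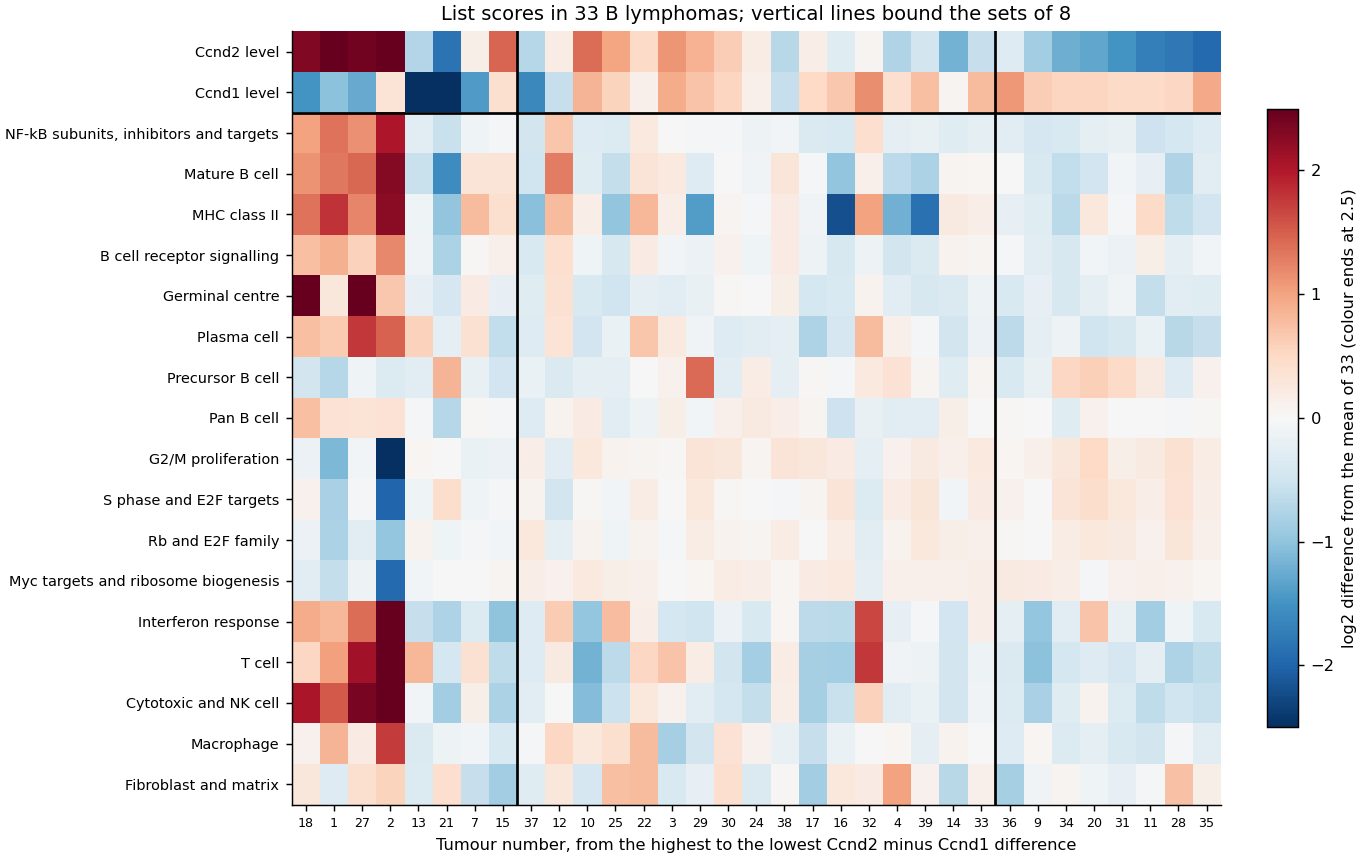
Cyclin levels and list scores (rows, log2 difference from the mean of the 33 B lymphomas) by tumour (columns), ordered from the highest to the lowest Ccnd2 minus Ccnd1 difference; vertical lines bound the sets of 8 and the colour ends at 2.5. Tumours 18, 1, 27 and 2 at the left share high NF-kB, mature B cell, MHC class II and cytotoxic scores, which tumours 13 and 21 do not.

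Between the sets of 8, Chst11 was the only gene that passed the test. It encodes a Golgi sulfotransferase that modifies chondroitin and lies on chromosome 10. Its log2 levels in the Ccnd2-leaning tumours 1, 2, 7, 13, 15, 18, 21 and 27 were 7.41, 7.41, 7.53, 8.95, 7.23, 7.47, 8.16 and 6.84, and those of the Ccnd1-leaning set ran from 5.51 through 5.75 to 6.05. The sets did not overlap, and all 8 Ccnd2-leaning tumours were higher whichever way they leaned. The difference was 1.86 ± 0.23 (SE, n = 8 and 8), which is 3.64-fold, with an adjusted p of 0.00793 by limma over 18191 genes. Without each of the 16 tumours in turn its difference stayed between 1.68 (without tumour 13) and 1.98 (without tumour 27), and its adjusted p under 0.05. A second, dimmer probe set of Chst11 differed by only 0.158, and with the mean of both probe sets its adjusted p was 0.0923. The call was also lost with the T cell, macrophage and fibroblast scores as covariates, where the difference was 2.03 and the adjusted p 0.0891. Chst11 lay below the median level of the genes, so a fit limited to genes at or above that level left it out. The sets were treated as fixed, although measured cyclin levels chose them.

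The count behind that call was low. With an adjusted p under 0.05, 1 gene was higher (0.00550% of 18191 tested) and 0 were lower (0%), while 3220 genes had an unadjusted p under 0.05 and 25 an adjusted p under 0.1. The sets did not overlap at 11 genes with all Ccnd2-leaning tumours above (0.0605%) and at 28 with all below (0.154%). The makeup of both sets moved the count, that of the Ccnd2-leaning set most. Without tumour 21, 51 genes were higher and 20 lower, and without tumour 15 the counts were 45 and 19. Without tumour 9 they were 4 and 1. Without tumours 2, 20 or 31, left out singly, 3, 3 and 2 genes were higher. Tumours 7, 13 and 21, which had low Ccnd1 without high Ccnd2, were left out together after the data were seen. Without these 3, which leaves 5 against 8, 776 genes were higher (4.27%) and 600 lower (3.30%). Counts without single tumours ran from 1 to 51 higher and from 0 to 20 lower.

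The next genes by p had adjusted p-values between 0.070 and 0.085 and were chosen for mention after their values were seen. Cd69, an early activation antigen of lymphocytes, ran from 5.19 (tumour 21) through 6.16 to 9.00 (tumour 2) against 3.16 through 3.44 to 5.16, with a difference of 2.79 ± 0.45 (SE). Ptpn22, a phosphatase that restrains antigen receptor signalling, ran from 6.59 through 9.08 to 11.89 against 4.86 through 5.87 to 6.76, a difference of 3.31 ± 0.58. The sets did not overlap at Cd69, and at Ptpn22 tumour 21 alone fell within the range of the other set. Ddit4, an inhibitor of mTORC1, differed by 1.46 ± 0.26 and Syne1, a nuclear envelope protein, by 1.68 ± 0.29. Dimmer probe sets of Syne1 differed by only 0.77 and 0.018. Raph1, an adaptor of the actin cytoskeleton, differed by 1.66 ± 0.30. The difference was 1.94 ± 0.36 at Ehd3, a protein of endosome traffic, and 2.30 ± 0.38 at Zcchc18. Lower values in the Ccnd2-leaning set were those of Cplx2, a complexin of exocytosis (-1.49 ± 0.27), the keratin gene Krt10 (-1.78 ± 0.33), Cep89 of the centriole (-1.07 ± 0.18) and the mitochondrial tryptophan tRNA synthetase gene Wars2 (-0.58 ± 0.11).

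**Figure D3:**
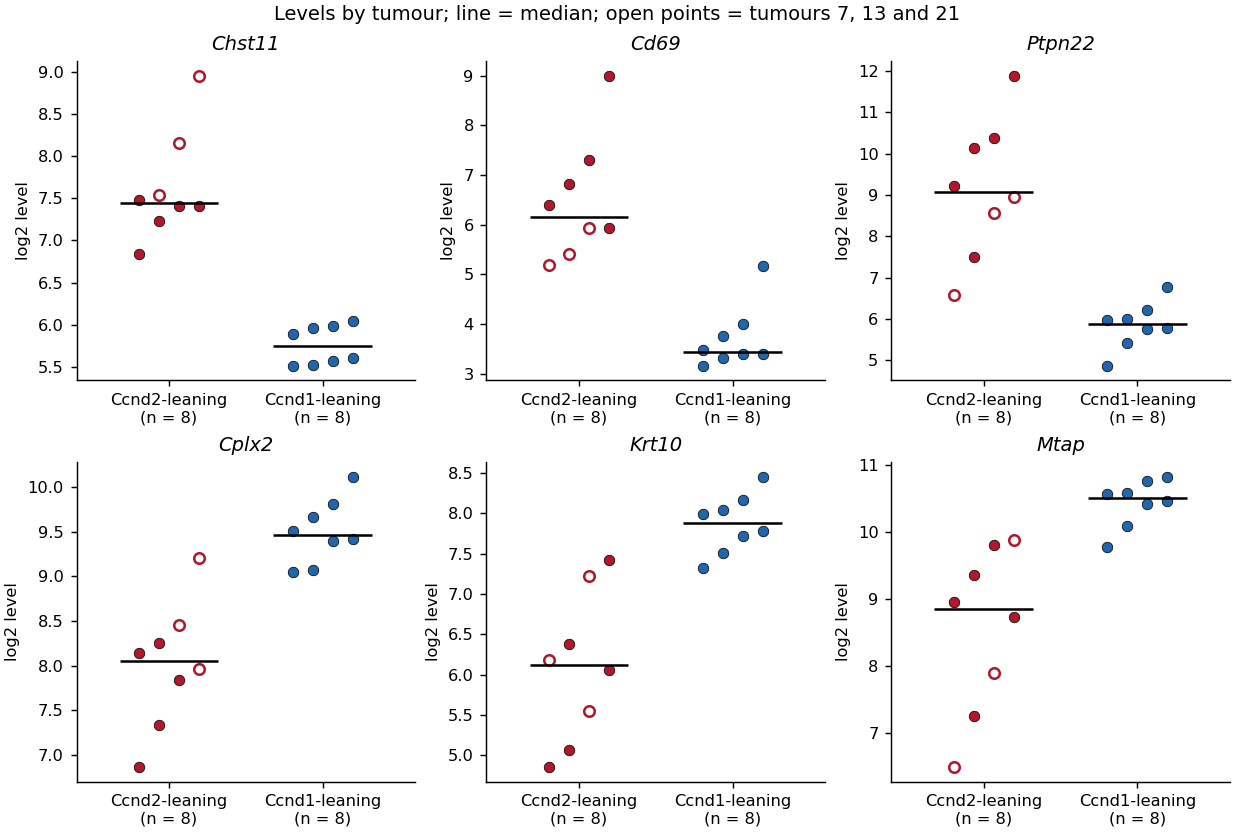
Log2 level of 6 genes in the Ccnd2-leaning and the Ccnd1-leaning tumours (8 points each, line at the median); open points are tumours 7, 13 and 21, which lean through low Ccnd1. Chst11 and Cd69 do not overlap between the sets, and the open points of Chst11 lie at or above the filled ones while those of Cd69 lie among the lowest.

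To separate the cyclins, each gene was fitted over the 33 B lymphomas with both cyclin levels in 1 model. The slopes are log2 units of the gene per log2 unit of 1 cyclin at a fixed level of the other. With Ccnd2, 1714 genes rose (9.42%) and 2104 fell (11.6%). With Ccnd1, 40 rose (0.220%) and 31 fell (0.170%), together 0.390%. Only 15 genes were called on both, of which 8 rose with Ccnd2 and fell with Ccnd1, 2 did the opposite, 3 rose with both and 2 fell with both. Chst11 was one of the 8, with slopes of 0.23 ± 0.07 on Ccnd2 (adjusted p = 0.019) and -0.53 ± 0.09 on Ccnd1 (adjusted p = 0.0027). The slope on the difference between the cyclins, in a model of its own, was called rising at 1216 genes (6.68%) and falling at 1392 (7.65%). Without tumour 1 these counts were 715 and 480, and without tumour 2 758 genes fell.

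The counts of the joint model depended on few tumours. Without tumours 1, 2, 18 and 27, 0 genes rose and 1 fell with Ccnd2, although 1928 genes still had an unadjusted p under 0.05. Without tumours 2 and 18 the counts were 412 and 343, and without tumour 2 alone 703 and 608. With the T cell, macrophage and fibroblast scores as covariates, or with the precursor minus mature B cell score as covariate, 0 genes rose and 0 fell with Ccnd2 (1863 and 1594 genes with an unadjusted p under 0.05). The Ccnd1 slopes depended on the other tumours: without tumours 7, 13 and 21, 4 genes rose and 1 fell, while without tumours 1, 2, 18 and 27 the counts were 39 and 37. Tumour 2 alone moved the Ccnd1 slopes the other way, to 89 rising and 70 falling without it. Without tumour 32 the counts were 68 and 51, and without tumour 21 18 genes fell.

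**Figure D4:**
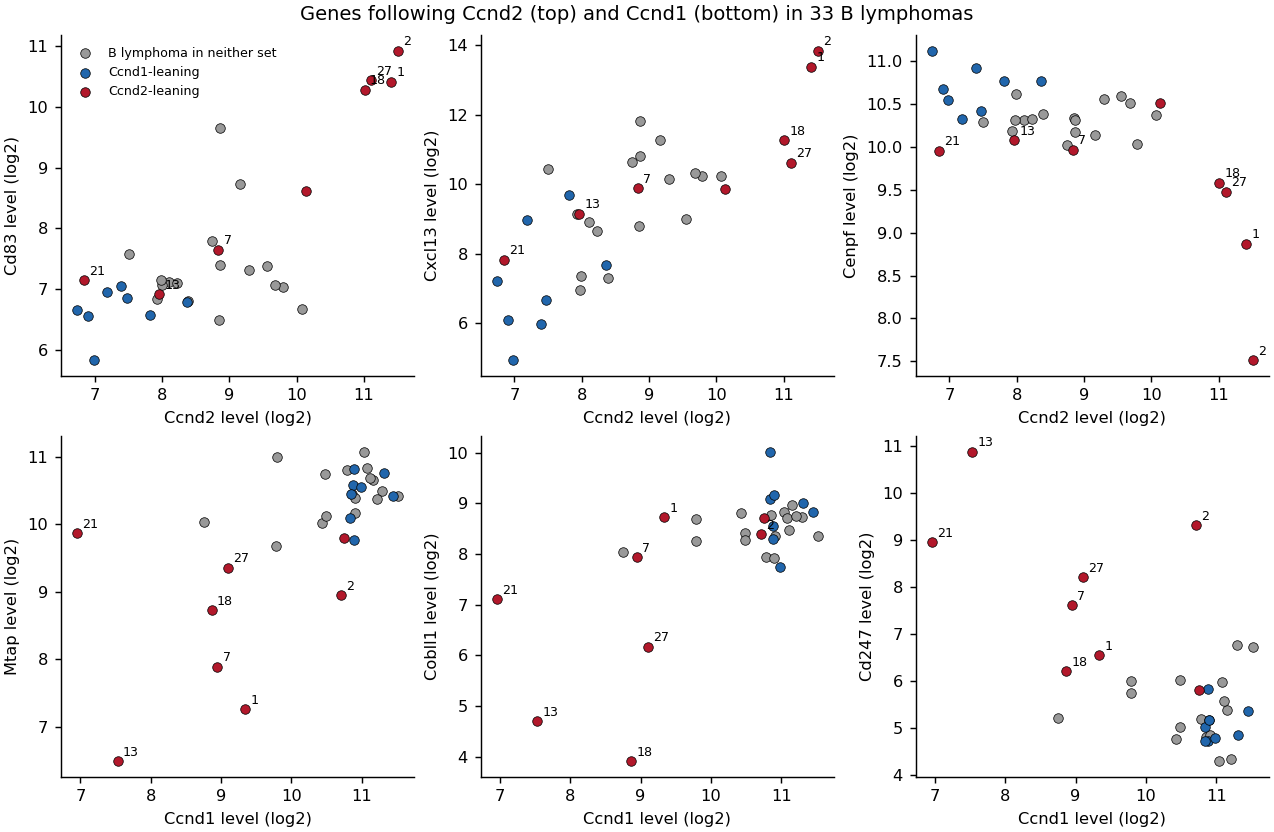
Log2 level of 3 genes against the Ccnd2 level (top) and of 3 genes against the Ccnd1 level (bottom) in the 33 B lymphomas, 1 point per tumour, with the numbers of 7 Ccnd2-leaning tumours. Tumours 1, 2, 18 and 27 hold the high-Ccnd2 end of the top panels. The low-Ccnd1 end of the bottom panels holds tumours 7, 13 and 21 together with 1, 18 and 27. Tumour 37 of neither set, not numbered, also lies there, at a Ccnd1 level of 8.76.

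The partners of the D cyclins were measured as a list of 20 genes. In the comparison of the sets 0 of 20 passed the test, with a median difference of -0.17 against -0.040 over all genes. Ccnd3, the third D cyclin, ran from 8.94 through 10.07 to 11.01 in the Ccnd2-leaning set and from 7.66 through 9.32 to 10.87 in the Ccnd1-leaning set, a difference of 0.70 ± 0.42 (SE, adjusted p = 0.38), and the sets overlapped over most of their ranges. Its slopes were 0.00 ± 0.10 on Ccnd2 and -0.35 ± 0.13 on Ccnd1 (adjusted p = 0.28). Cdk6, a D cyclin kinase, differed by 0.49 ± 0.61 and Cdk4, the other one, by -0.54 ± 0.25 (adjusted p = 0.27). Cdk6 was at 12.13 in tumour 21, where both cyclins were low, and at 5.79 in the Ccnd1-leaning tumour 11, against 9.25 to 10.18 in the other Ccnd1-leaning tumours.

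Along the Ccnd2 level, 3 of the 20 rose and 6 fell, beside 9.42% and 11.6% of all genes, so the number rising was near the background. Those that rose were Cdkn2b, an inhibitor of Cdk4 and Cdk6 (slope 0.23 ± 0.05, adjusted p = 0.0014), Cdkn1a, the p53-induced inhibitor of cyclin kinases (0.24 ± 0.08, 0.024), and Fbxo4, a ubiquitin ligase subunit known for D cyclin turnover (0.21 ± 0.05, 0.0055). Cdkn2b was at 7.32, 6.51, 6.61 and 7.09 in tumours 18, 1, 27 and 2 and at most 6.18 in the Ccnd1-leaning set. Those that fell were Cdk4 (-0.21 ± 0.05), Cdk2, the kinase of cyclins E and A (-0.24 ± 0.05), the cyclin genes Ccne2 (-0.32 ± 0.09) and Ccna2 (-0.24 ± 0.07), the phosphatase Cdc25a (-0.14 ± 0.04) and Cdkn3, a phosphatase acting on cyclin kinases (-0.29 ± 0.06). Cdk4 was at 9.24 in tumour 2 and between 10.56 and 11.72 in the other Ccnd2-leaning tumours. No gene of this list was called on the Ccnd1 level. The counts on Ccnd2 were 0 rising and 2 falling without tumours 2 and 18, beside 412 and 343 of 18191 genes. Cdkn2a, which encodes another Cdk4 and Cdk6 inhibitor and the p53 activator Arf, varied from 4.48 to 11.79 in one set and from 4.41 to 12.17 in the other.

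Genes downstream of the D cyclins fell with the Ccnd2 level. Over all genes 9.42% rose and 11.6% fell with Ccnd2, with a median slope of -0.017. Of 17 genes of the Rb and E2F family 0 rose and 9 fell, with a median slope of -0.15. Among them were E2f7, a repressor E2F (-0.39 ± 0.07), Lin9, a subunit of the complex that drives mitotic genes (-0.20 ± 0.05), and Tfdp1, the partner of E2F proteins (-0.17 ± 0.06). Of 26 genes of S phase 23 fell, including Gins1 of the replicative helicase (-0.35 ± 0.06) and the origin licensing factor gene Cdc6 (-0.30 ± 0.07). Of 25 genes of G2 and mitosis 24 fell, including the centromere protein gene Cenpf (-0.31 ± 0.06), the mitotic kinase gene Plk1 (-0.27 ± 0.07) and the spindle motor gene Kif11 (-0.29 ± 0.07). Without tumours 2 and 18, 3, 8 and 9 genes of these lists fell, beside 343 of all 18191 genes. Without tumours 1, 2, 18 and 27 no list gene fell, with median slopes of -0.050, -0.082 and -0.076 against -0.0082 over all genes.

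The lowest levels of these genes were in tumours 2 and 1. Cenpf was at 7.51 in tumour 2, 8.87 in tumour 1, 9.48 in tumour 27 and 9.58 in tumour 18, then between 9.96 and 10.51 in the other Ccnd2-leaning tumours, and between 10.33 and 11.12 in the Ccnd1-leaning set. The G2/M score was -2.45 in tumour 2 and -1.01 in tumour 1. All 8 Ccnd2-leaning tumours had a lower G2/M score than every Ccnd1-leaning tumour, but the nearest pair, tumours 13 and 36, stood at 0.1579 and 0.1584. The high T cell and macrophage scores of tumour 2 moved with these values, and with those scores and the fibroblast score as covariates 0 of all genes tested were called on Ccnd2 by limma (1863 with an unadjusted p under 0.05). The slopes of Ccna2, Plk1, Cdc6 and Tfdp1 changed sign in that fit.

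Myc itself ran from 8.19 (tumour 2) through 11.31 to 12.10 in the Ccnd2-leaning set and from 11.30 through 12.07 to 12.32 in the Ccnd1-leaning set, and its Ccnd2 slope was -0.28 ± 0.09 (adjusted p = 0.022). Of 27 Myc targets and genes of ribosome biogenesis 0 rose and 17 fell with Ccnd2, with a median slope of -0.15. Over all genes 9.42% rose and 11.6% fell. Srm, the spermidine synthase gene, had a slope of -0.22 ± 0.07 and Polr1b, a subunit of RNA polymerase I, of -0.24 ± 0.06. Their levels in tumour 2, at 9.44 for Srm and 6.90 for Polr1b, were the lowest of the 16. Without tumours 2 and 18, 0 of the 27 were called, beside 412 rising and 343 falling of 18191 genes. Without tumours 1, 2, 18 and 27 the median slope of the 27 was 0.0075 and the slopes of Myc and Srm changed sign.

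**Figure D5:**
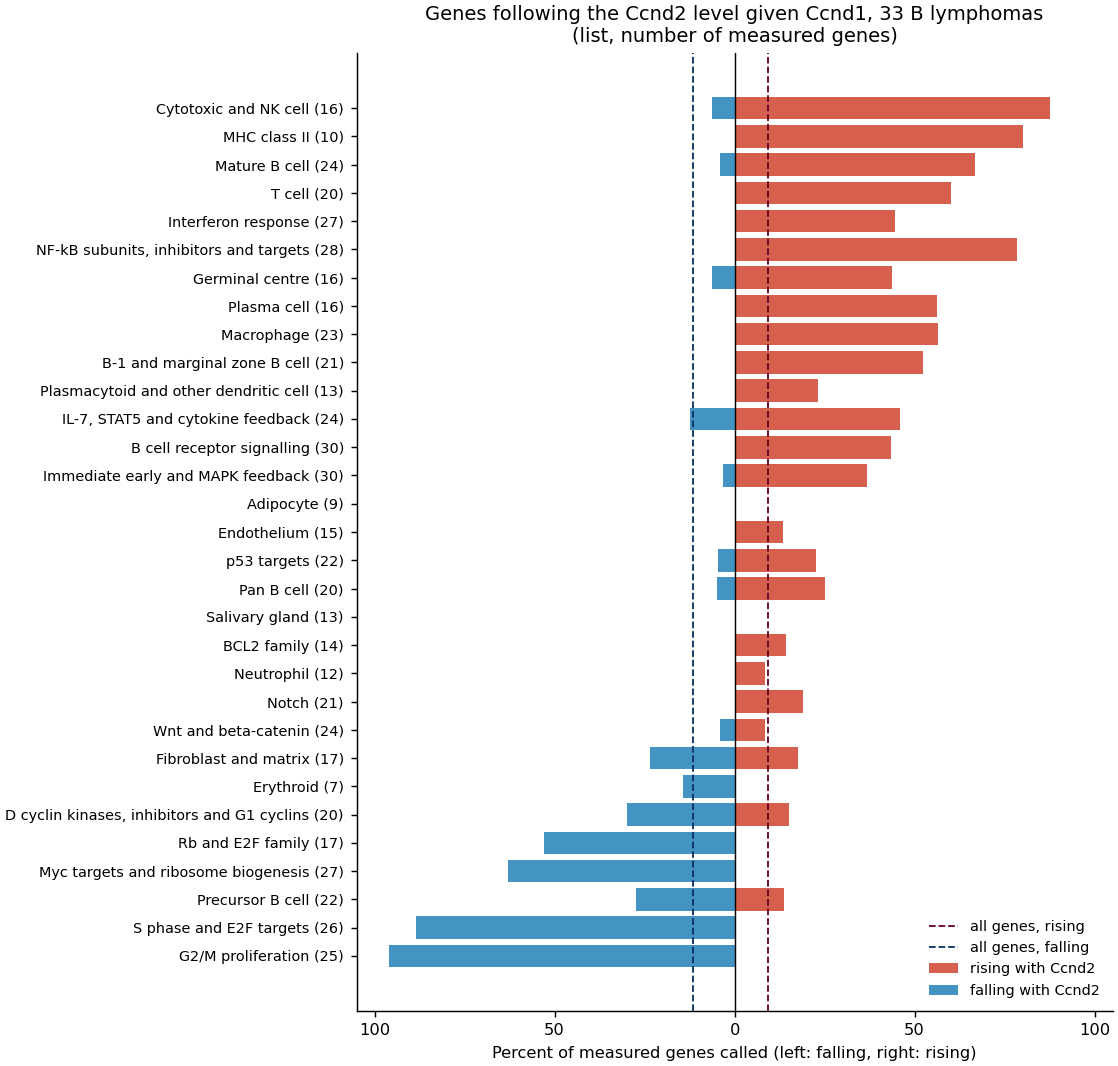
Percent of the measured genes of each list (number in brackets) that rose (right) or fell (left) with the Ccnd2 level given Ccnd1 over 33 B lymphomas, by limma at an adjusted p under 0.05, in order of the list's median slope; dashed lines mark the same over all genes, 9.42% rising and 11.6% falling. NF-kB, MHC class II, mature B cell and cytotoxic genes lie at the rising side and G2/M and S phase genes at the falling side.

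Most NF-kB genes rose with Ccnd2. NF-kB factors are held in the cytoplasm by inhibitors whose own genes they activate. Of 28 measured genes 22 rose and 0 fell, beside 9.42% rising and 11.6% falling of all genes. Their median slope was 0.31. The 22 included the subunit genes Rel, Relb and Nfkb2 and the inhibitor genes Nfkbia and Nfkbie, named after their calls were seen. Cd83, an activation antigen of B and dendritic cells, was at 10.28, 10.41, 10.43 and 10.92 in tumours 18, 1, 27 and 2, at 6.92 to 8.62 in the other Ccnd2-leaning tumours and at 5.84 to 7.06 in the Ccnd1-leaning set. Only tumours with Ccnd2 above 10 thus exceeded 8 among the 16, and the Ccnd2 slope of Cd83 was 0.73 ± 0.10 (adjusted p = 9.7e-05). Tnfaip3, which encodes the NF-kB inhibitor A20, had a slope of 0.64 ± 0.10, and the lymphotoxin genes Lta and Ltb had slopes of 0.62 ± 0.11 and 1.02 ± 0.17. In the 5 against 8 comparison, chosen after the data were seen, 17 of the 28 were higher, beside 4.27% of all genes. It keeps tumours 1, 2, 18 and 27, so it is not separate from the slopes. Without tumours 2 and 18, 15 of 28 rose with Ccnd2, beside 412 of 18191 genes. Without tumours 1, 2, 18 and 27, 0 of 28 did, with a median slope of 0.094.

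Genes of B cell stage were called in both directions. Of 24 mature B cell genes 16 rose with Ccnd2 and 1 fell, with a median slope of 0.41. Fcmr, the IgM Fc receptor gene, was at 11.70, 12.14, 10.70 and 12.03 in tumours 18, 1, 27 and 2, at 8.69, 3.77, 10.99 and 10.65 in tumours 13, 21, 7 and 15, and at 4.59 to 8.82 in the Ccnd1-leaning set. Cxcr5, the follicle homing receptor gene, had a slope of 0.92 ± 0.13 and the complement receptor gene Cr2 of 0.68 ± 0.18. Of 22 precursor B cell genes 3 rose and 6 fell, beside 9.42% and 11.6% of all genes, so the number rising was near the background. Vpreb3, expressed from precursor stages, was at 6.23, 7.52, 9.78 and 9.97 in tumours 1, 2, 18 and 27, and at 11.31 to 12.54 in the other Ccnd2-leaning tumours beside 11.64 to 12.43 in the Ccnd1-leaning set. Sox4, a transcription factor of early B cells, had a slope of -0.53 ± 0.14 and the de novo methyltransferase gene Dnmt3b of -0.32 ± 0.06, while Mme, the CD10 gene, rose at 0.54 ± 0.14. Tumour 21 went the other way from tumours 1, 2, 18 and 27: its mature B cell score of -1.45 was the lowest and its precursor score of 1.04 the highest of the 16.

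MHC class II genes, which present antigen and mark mature B cells, rose in 8 of 10 cases and fell in 0. H2-DMb2, a peptide loading chain, had a slope of 0.70 ± 0.16 and Ciita, the master activator of the class, of 0.46 ± 0.12. Of 30 B cell receptor signalling genes 13 rose and 0 fell, among them Rasgrp3, a Ras activator (0.70 ± 0.13), the transcription factor gene Nfatc2 (0.46 ± 0.11) and Ptpn22 (0.71 ± 0.17). Of 20 pan B cell genes 5 rose and 1 fell, beside 9.42% and 11.6% of all genes, so the share falling was below the background. Of 21 genes of B-1 and marginal zone B cells 11 rose and 0 fell, with slopes of 0.61 ± 0.13 for S1pr3, a lipid receptor that places B cells in the marginal zone, 0.60 ± 0.08 for Plscr1 and 0.51 ± 0.11 for Cd9. The genes rising without tumours 2 and 18 were 3 of 24 in the mature list, 1 of 10 in MHC class II, 3 of 30 in receptor signalling and 7 of 21 in the B-1 list. Over all genes 412 of 18191 rose in that setting.

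Germinal centre genes differed among the high-Ccnd2 tumours, with scores of 2.75 and 2.54 in tumours 18 and 27 and of 0.25 and 0.63 in tumours 1 and 2. Rgs13, a G protein regulator of germinal centre B cells, was at 12.31 in tumour 18 and 11.63 in tumour 27. The level was 3.54 in tumour 1, 2.98 in tumour 2 and 7.11 in tumour 7. In the Ccnd1-leaning set it never exceeded 3.19. Gcsam followed the same pattern with 10.37, 9.38, 3.68 and 5.59, and Bcl6, the master repressor of the germinal centre, was at 11.14, 10.91, 6.36 and 10.23. Of the 16 germinal centre genes 7 rose with Ccnd2 and 1 fell, and without tumours 2 and 18 the counts were 2 and 0. Of 16 plasma cell genes 9 rose and 0 fell, and without tumours 2 and 18 4 rose. Over all genes 9.42% rose and 11.6% fell, and 412 and 343 of 18191 did without tumours 2 and 18. Jchain, the joining chain of secreted antibody, was at 11.42, 12.62, 13.19 and 13.54 in tumours 18, 1, 27 and 2 and ran from 6.61 to 11.44 in the Ccnd1-leaning set. Among the 4 immunoglobulin constant chains measured, Igha rose at 0.75 ± 0.21 and Ighg3 at 0.68 ± 0.15.

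Cytokine and immediate early genes were also called. Of 24 genes of IL-7, STAT5 and cytokine feedback 11 rose and 3 fell, among them Socs3, a feedback inhibitor of cytokine receptors (0.49 ± 0.11), the kinase gene Jak2 (0.32 ± 0.10) and the receptor gene Il21r (0.30 ± 0.07). Of 30 immediate early genes 11 rose and 1 fell. Without tumours 2 and 18 the counts were 1 and 1, beside 412 and 343 of 18191 genes. Egr1 and Egr2, factors induced by receptor signals, had slopes of 0.53 ± 0.16 and 0.46 ± 0.11, and the gene that fell was Myb, a progenitor transcription factor (-0.54 ± 0.10). Beside the 9.42% rising and 11.6% falling of all genes, calls were made among Notch genes (4 rising, 0 falling of 21), Wnt genes (2 and 1 of 24), p53 targets (5 and 1 of 22, with Fas at 0.61 ± 0.09) and the BCL2 family (2 and 0 of 14). The shares of the Wnt and BCL2 lists were near or below those of all genes.

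Genes of other cell types also rose with Ccnd2, and the part of those cells in the other gene groups was not tested beyond the covariates named above. Of 16 cytotoxic and NK cell genes 14 rose and 1 fell, of 20 T cell genes 12 rose and 0 fell, and of 23 macrophage genes 13 rose and 0 fell. Nkg7, a cytotoxic granule protein gene, had a slope of 0.74 ± 0.13, Tbx21, the T-bet gene, of 0.79 ± 0.15, Cd3g of 0.76 ± 0.21, Csf1r, the macrophage growth factor receptor gene, of 0.33 ± 0.08 and the complement gene C1qa of 0.32 ± 0.08. Of these lists 6, 4 and 2 genes rose without tumours 2 and 18, beside 412 of 18191 genes. Of 27 interferon genes 12 rose and 0 fell, including the GTPase genes Gbp2 (0.78 ± 0.17) and Iigp1 (0.83 ± 0.17), and without tumours 2 and 18 0 did. Cxcl9, an interferon-gamma chemokine, was at 13.76 in tumour 2, 12.59 in tumour 18, 11.28 in tumour 1 and 10.11 in tumour 27. It was also at 10.33 in the Ccnd1-leaning tumour 20. Of 17 fibroblast genes 3 rose, among them Dcn (0.54 ± 0.09), and 4 fell, among them Mfap5 (-0.54 ± 0.12). The shares over all genes were 9.42% rising and 11.6% falling. On the Ccnd2 slope 0 of 13 salivary gland and 0 of 9 adipocyte genes were called by limma.

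Leaving out predicted genes and Riken clones, the 6 largest called rising slopes on Ccnd2 belonged to Cxcl13, the chemokine that draws B cells into follicles (1.18 ± 0.16, adjusted p = 1.1e-04), Fcmr (1.08 ± 0.23), Ltb (1.02 ± 0.17), the ubiquitin-like Ubd (1.01 ± 0.18), Cst7, a cystatin of cytotoxic cells (0.99 ± 0.17), and Clec4e, a myeloid lectin receptor (0.97 ± 0.18). Cxcl13 was at 13.83 and 13.37 in tumours 2 and 1, at 7.82 in tumour 21 and at 4.94 to 9.70 in the Ccnd1-leaning set. The 6 largest falling slopes, with the same genes left out, were those of the potassium channel gene Kcnk1 (-1.03 ± 0.29), the reductase gene Ptgr1 (-0.78 ± 0.15), Vpreb3 (-0.70 ± 0.13), the phosphatase gene Ppm1e (-0.65 ± 0.10), the scaffold gene Akap12 (-0.61 ± 0.17) and Lrrn4 (-0.61 ± 0.15).

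Few genes were called on Ccnd1, and most named calls rested on tumours 13 and 21. Rising with Ccnd1 were Mpp3, a scaffold gene (0.79 ± 0.18), Cobll1 (0.71 ± 0.13), Mtap (0.61 ± 0.11, adjusted p = 0.0057), Ifi27l2a, an interferon-induced gene (0.61 ± 0.14), the chromatin remodeller gene Chd7 (0.55 ± 0.11) and Krt10 (0.53 ± 0.10). Falling with Ccnd1 were Cd247, the zeta chain of the T cell receptor (-0.89 ± 0.17, adjusted p = 0.0062), Fgf13 (-0.81 ± 0.19), Rgcc, a cell cycle regulator gene (-0.69 ± 0.16), Zcchc18 (-0.66 ± 0.14), Prdm1, the master factor of plasma cells (-0.63 ± 0.14), and Zfp354b (-0.57 ± 0.11). Of 17 named genes called on Ccnd1, 13 lost the call without tumour 13 alone and 12 without tumour 21 alone. Without tumours 7, 13 and 21, all 17 lost it, and the slope of Zfp354b also changed sign. In the lists, the genes called on Ccnd1 were Bcl11a of the pan B cell list (0.49 ± 0.11), Prdm1 and Eaf2 (-0.51 ± 0.11) of the 16 plasma cell genes and Cd247 of the 20 T cell genes, all named after their calls were seen.

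Mtap, an enzyme of methionine salvage on chromosome 4, was low in some Ccnd2-leaning tumours. Its levels in tumours 13, 1, 7, 18 and 2 were 6.48, 7.25, 7.89, 8.73 and 8.95, and those in tumours 27, 15 and 21 were 9.36 to 9.87. The Ccnd1-leaning set ran from 9.77 to 10.82. All 4 of its probe sets had lower means in the Ccnd2-leaning set, with differences of -1.89 to -2.23, and that of the brightest was -1.89 ± 0.42 (SE, adjusted p = 0.12). Cdkn2a and Cdkn2b lie near Mtap on that chromosome in the mouse. Tumour 13 also had the lowest Cdkn2a of the Ccnd2-leaning set at 4.48, but tumour 36 of the other set was at 4.41. The Cdkn2b of tumour 13, at 5.65, lay within the range of the Ccnd1-leaning tumours. Tumour 18 had the highest Cdkn2b of the Ccnd2-leaning set at 7.32. Median Cdkn2a was 8.73 in the Ccnd2-leaning and 6.41 in the Ccnd1-leaning set. A shared change of these genes was not tested. Cobll1 was low in tumours 18 (3.91), 13 (4.71) and 27 (6.17) and not below 7.10 in the other 5 Ccnd2-leaning tumours. Cd247 was highest in tumour 13 at 10.88, where the T cell score was 0.81 and Cd3g 7.68, against a Cd247 of 9.32 and a Cd3g of 11.14 in tumour 2. Zfp354b exceeded 5 in tumours 21 (7.42) and 13 (5.99) alone among the 16.

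The genes nearest to each cyclin on its chromosome were read as well. Of 20 measured genes around Ccnd2 on chromosome 6, 0 passed the test between the sets and the median difference was -0.10. On the Ccnd2 slope 7 of the 20 were called, beside 21.0% of all genes. Of these 7, Tspan9, a tetraspanin gene (0.095), and the Riken gene 9330179D12Rik next to Ccnd2 (0.13) rose. The others fell, among them Rad51ap1, a recombination gene (-0.21), and Ndufa9, a respiratory chain gene (-0.12). Of 13 measured genes around Ccnd1 on chromosome 7, 0 were called between the sets or on the Ccnd1 slope, with a median difference of -0.046. The median difference over all genes was -0.030 on chromosome 6 and -0.052 on chromosome 7.

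The 17 tumours of neither set give the same measure in samples that the comparison of the sets did not use. Their difference between the cyclins spans only -3.05 to -0.78. On the slope over these tumours 0 genes rose (0%) and 0 fell (0%) by limma at an adjusted p under 0.05, and 705 had an unadjusted p under 0.05. The slope of Chst11 was 0.27 per log2 unit (unadjusted p = 0.14). Of the 25 genes with an adjusted p under 0.1 between the sets, 22 had a slope of the same sign, which is 88%, against 55% of all genes, and 1 of the 25 had an unadjusted p under 0.05. The median slope was -0.0041 over all genes, 0.048 over NF-kB genes, 0.23 over mature B cell genes and -0.016 over G2/M genes. Some other lists had the opposite sign to their median slope over all B lymphomas, given in brackets. In these 17 tumours the median was -0.15 over T cell (0.30), -0.039 over cytotoxic (0.34) and -0.084 over interferon genes (0.12). Over Myc target genes it was 0.049 (-0.11). Germinal centre and plasma cell genes had medians of 0.0022 (0.24) and -0.0017 (0.21). MHC class II and macrophage genes kept their sign, at 0.21 and 0.12.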

How the data were processed

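Lymphoma RNA of 39 Eµ-myc mouse tumours was hybridised to 1 array each, and the authors deposited log2 values of 45101 probe sets, made with RMA in affy per the submitters' processing notes. RMA equalises arrays and compresses low signals, so fold changes of dim genes are understated. The sources used here give no version of either. No depth applies to arrays, and the number of tumours limits precision.

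Of the probe sets, 34958 had 1 gene in the platform table, 932 several and 9211 none listed. The probe set with the highest mean stood for each of 18194 genes, and 18191 were tested, without Ccnd1, Ccnd2 and Pou2af1, which chose the tumours. Models were fitted with limma 3.58.1 (lmFit and eBayes with trend) in R 4.3.3: the sets of 8, the slope on the cyclin difference over 33 tumours and over 17, and both cyclin levels jointly. Called means an adjusted p under 0.05 by Benjamini-Hochberg over all genes tested. The code was tested on simulated data. Alternatives covered set size, probe sets, covariates, filters and left-out tumours.

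The tumours and the 32 gene lists (613 measured genes of 673) were chosen with earlier results of these data known, and 1 further list is not reported here. Genes named by rule were the called genes of the sets with the largest difference, all partners of the D cyclins, up to 4 called members of each list by difference or else the smallest p, the cyclins' nearest neighbours, and the 6 largest called joint slopes in each direction, predicted genes passed over. The 12 genes of smallest p in the sets were chosen after their values were seen. So were the list members with the largest called slopes on the cyclin difference, for which joint slopes are given.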

Additional observations from a re-analysis of the deposited data

Results flagged for a closer look

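In 17 of 132 sets of 8 values examined, 1 tumour stood apart from the other 7 by Dixon's criterion, which chance alone meets in about 1 in 20 sets. Tumour 2 accounted for 7 of them within the Ccnd2-leaning set. Its levels were low for Cdk4 (9.24, nearest 10.56), Ccne1 (8.23, nearest 9.29) and Ccna2 (8.96, nearest 10.87). Its scores were low for G2/M (-2.45, nearest -1.01) and Myc target genes (-1.89, nearest -0.55). They were high for cytokine feedback (1.35, nearest 0.47) and dendritic cell genes (1.46, nearest 0.46).

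In the same set, tumour 21 had the lowest Bcl11a (5.61, nearest 9.42) and the highest precursor B cell score (1.04, nearest 0.08), and tumour 27 had the highest Ehd3 (10.15, nearest 8.6). Within the Ccnd1-leaning set, Cdk6 was at 5.79 in tumour 11 (nearest 9.25), Cdk2 at 9.68 in tumour 9 (nearest 10.24), Cdc25a at 9.33 in tumour 36 (nearest 10.05) and Cd69 at 5.16 in tumour 31 (nearest 4.0). Scores that stood apart there were pan B cell in tumour 34 (-0.2, nearest 0.06), erythroid in tumour 36 (0.29, nearest 0.06) and salivary gland in tumour 11 (-0.66, nearest -1.48).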

How the results depend on the processing

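Settings that leave out named groups of tumours, and the stage covariate in the joint model, were chosen after seeing the data. So were the fits without single tumours for the slopes over the 33 B lymphomas. Between the sets, 1 gene was higher and 0 lower. The counts were 6 and 2 with 6 tumours at each end, and 2 and 1 with the precursor minus mature score as covariate. They were 5 and 2 in genes at or above the median level, a filter that left out Chst11. Genes higher numbered 0 with the mean of all probe sets, 3 with the T cell, macrophage and fibroblast scores (Ccn2, Ddit4 and Errfi1, not Chst11), 3 without tumours 2 and 18, and 776 (600 lower) without tumours 7, 13 and 21. Leaving out single tumours gave 1 to 51 higher and 0 to 20 lower. The slope on the difference (1216 rising, 1392 falling) gave 753 rising in genes above the median, 16 and 24 with the 3 cell scores, 21 and 19 with the stage score, 579 and 368 over 39 tumours, 407 and 336 without tumours 2 and 18, and 2 and 1 without tumours 1, 2, 18 and 27. Its ranges over single tumours were 715 to 1464 and 480 to 1718. The joint Ccnd2 slope (1714 and 2104) gave 1084 rising above the median, 0 and 0 with either set of covariates, 412 and 343 without tumours 2 and 18, 0 and 1 without tumours 1, 2, 18 and 27, and 1101 and 1263 without tumours 7, 13 and 21, with ranges of 703 to 1873 and 608 to 2315. The joint Ccnd1 slope (40 and 31) gave 19 falling above the median, 70 rising with the cell scores, 64 and 48 with the stage score, 58 falling without tumours 2 and 18, and 4 and 1 without tumours 7, 13 and 21, with ranges of 32 to 89 and 18 to 70. Among the named genes, Ccnd2 slopes that changed sign with the cell scores were Akap12 0.034, Ccna2 0.010, Tfdp1 0.052, Plk1 0.0083, Cdc6 0.020, Myc 0.019, Srm 0.019, Polr1b 0.035, Cd3g -0.030 and Cxcl9 -0.080. With the stage score Sox4 was at 0.080. The T cell score includes Cd3g and the stage score includes Sox4, so these fits cannot say whether either gene follows Ccnd2. Without tumours 1, 2, 18 and 27 the slopes that changed sign were Cdkn1a -0.036, Tfdp1 0.0016, Myc 0.066, Srm 0.077, Ccl5 -0.053 and Cxcl9 -0.34. The Ccnd1 slope of Zfp354b was 0.030 without tumours 7, 13 and 21. The cause of these changes was not tested. No paired analysis was possible because the labels put all tumours in 1 group.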
